A study of Mus musculus with 12 samples.

Results

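The genes for the proteins of the cytosolic ribosome were followed across 12 mRNA sequencing libraries of primary mouse hepatocytes. They were picked by symbol alone, as rows named Rpl or Rps with a number and at most a closing a or x, together with Rplp0, Rplp1, Rplp2 and Rpsa. This gave 77 of the 37991 rows of the deposited table, 46 for the large and 31 for the small ribosomal subunit, and the symbols leave out pseudogenes and the S6 kinases. The 12 libraries form 4 groups of 3, all from male mice aged 10 weeks with loxP sites in both REV-ERB genes, Nr1d1 and Nr1d2. KO-labelled SR9009 and KO-labelled DMSO cells came from mice given an AAV8 virus 2 weeks earlier in which the hepatocyte promoter TBG drove Cre with GFP. Control SR9009 and control DMSO cells came from mice given the same virus with GFP alone, and every library carries the loxP sites. An effect of Cre itself and the loss of REV-ERB therefore cannot be told apart. After plating on collagen, cells were exposed for 8 h to 10 µM SR9009, a synthetic compound described as a REV-ERB agonist, or to the solvent DMSO. Nothing in the labels says that the 3 libraries within a group are from different animals. The p-values therefore cover the variation among these libraries only, and that variation may be technical.

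Expression values were FPKM, which scales each gene's fragments by its length and by the library's total, and SD and n refer to the 3 libraries of a group throughout. Summed FPKM per library lay between 538521 and 604449. The depth of 11 libraries, read from the steps between low values, was 55.5 to 92.3% of that of the deepest one, control DMSO library 1, with control SR9009 library 1 and KO-labelled DMSO library 1 the shallowest. The whole-gene values did not show the deletion: Nr1d1 stood at 17.7 ± 0.46 FPKM in KO-labelled DMSO cells and 18.5 ± 0.41 FPKM in control DMSO cells (limma adjusted p = 0.492). Nr1d2 stood at 16.2 ± 0.095 FPKM in KO-labelled DMSO cells and 15.3 ± 1.9 FPKM in control DMSO cells (limma adjusted p = 0.633), and a value over the whole gene does not test the loss of a part of it. All 10 hepatocyte markers were expressed, with Alb at 19620 FPKM on average, while the stellate cell and lymphocyte markers summed to at most 1.41 and 0.391 FPKM in a library. The 5 bile duct markers summed to 29.1 to 61.7 FPKM in a library, mostly from Spp1 and Sox9 with means of 33.3 and 6.61 FPKM, while Krt7 and Krt19 averaged 0.00464 and 0.165 FPKM.

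A ribosome is assembled from ribosomal RNA and a large set of small basic proteins, nearly all made from a single active gene each and needed in equal numbers. Their messenger RNAs are among the most abundant of the liver and mostly begin with a run of pyrimidines, the terminal oligopyrimidine or TOP motif, through which the kinase complex mTORC1 and the protein LARP1 control their translation and stability together. The transcription factor MYC drives the genes that build ribosomes, and a surplus of free ribosomal proteins such as RPL5 and RPL11 binds MDM2 and so stabilises p53.

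RefSeq start sites of build GRCm38.p6 were at hand for 56 of the 77 genes, in 66 windows that run from 250 bases before to 50 bases after the start. An unbroken run of at least 8 C or T that touches the 15 bases on either side of the start was found in 45.5% of these windows, against 17.6% of all 32851 windows. The 30 bases around the start, 15 on either side, are shown for 5 genes whose levels the results below turn on and for Rps6 and Rplp2, which carry the run. Capitals mark the run of C or T, and sequences without capitals have none of that length.

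Rps18: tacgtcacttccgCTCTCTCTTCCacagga
Rps10: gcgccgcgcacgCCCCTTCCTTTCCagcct
Rps6: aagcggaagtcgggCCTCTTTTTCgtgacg
Rplp2: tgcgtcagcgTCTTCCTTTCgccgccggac
Rps2: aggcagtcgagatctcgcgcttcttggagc
Rpl23: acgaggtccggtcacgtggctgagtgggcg
Rpl37a: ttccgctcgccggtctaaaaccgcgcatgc

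These lie at chr17:33955651-33955680 on the minus strand, chr17:27635230-27635259 on the minus strand, chr4:86857353-86857382 on the minus strand, chr7:141447636-141447665 on the plus strand, chr17:24720048-24720077 on the plus strand, chr11:97782425-97782454 on the minus strand and chr1:72711245-72711274 on the plus strand. Rps2 and Rpl37a hold shorter pyrimidine stretches of 6 and 5 bases near the annotated start, and an annotated start can lie some bases from the start in use.

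Searched on both strands, the ETS factor motif CCGGAAG was in 36.4% of the ribosomal protein windows and 8.86% of all windows. The YY1 motif AAGATGG was in 16.7% of the ribosomal protein windows and 6.34% of all, and the E-box CACGTG, bound by MYC and by the clock factors, in 12.1% and 7.15%. The site AGGTCA, to which REV-ERB and ROR receptors bind, was in 10.6% of the ribosomal protein windows and 16.3% of all, and TATAAA in 9.09% and 13.6%. The 150 bases before the start of Rps2 (chr17:24719913-24720062, plus strand) and Rps18 (chr17:33955666-33955815, minus strand), the small subunit genes with the smallest p in the comparison of KO-labelled and control cells below, both hold the ETS motif or its reverse complement. Capitals mark CCGGAAG, its reverse complement CTTCCGG and, in Rps2, the reverse complement of TATAAA.

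Rps2: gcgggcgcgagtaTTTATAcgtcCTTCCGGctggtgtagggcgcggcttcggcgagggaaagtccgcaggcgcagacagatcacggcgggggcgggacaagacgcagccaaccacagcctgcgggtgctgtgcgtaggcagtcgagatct
Rps18: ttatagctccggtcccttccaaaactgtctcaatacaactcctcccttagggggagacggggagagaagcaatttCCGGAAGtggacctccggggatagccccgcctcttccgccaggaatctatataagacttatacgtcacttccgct

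All 77 genes passed the filter of at least 1 FPKM in 3 libraries, as did 11213 of the 37991 rows. Their means over the 12 libraries lay between 30.1 and 915 FPKM with a median of 267 FPKM, against a median of 9.01 FPKM for all genes tested. The level was even for most of them, since 71 of 77 lay between 100 and 500 FPKM. Rplp1, an acidic protein of the stalk that recruits translation factors, stood alone above that range at 915 FPKM. The next highest of the large subunit were Rpl13a at 488 FPKM, Rpl8 at 473 FPKM and the stalk base protein Rplp0 at 469 FPKM. In the small subunit Rps2, a protein of the mRNA entry site, led with 477 FPKM, followed by Rps23 at 466 FPKM, Rps6, the substrate of the S6 kinases, at 434 FPKM and Rps26 at 410 FPKM. The 5 genes below 100 FPKM were Rps15a at 30.1 FPKM, Rps20 at 45.6 FPKM, Rpl22 at 54.4 FPKM, Rpl21 at 57.4 FPKM and Rpl18 at 75.1 FPKM. The next lowest were Rpl39 at 107 FPKM in the large subunit and Rps10 and Rps19 at 158 and 160 FPKM in the small. Genes of the small subunit had a median of 306 FPKM and those of the large subunit 241 FPKM.

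Some of these levels depend on how reads were assigned. The table lists 170 rows whose symbols join one of these gene names to the suffix -ps, which marks a pseudogene, of which 46 averaged at least 1 FPKM. The pseudogene rows of Rpl21 summed to 149% of the level of Rpl21 itself, those of Rpl35a to 74.9%, those of Rps12 to 55.1% and those of Rpl14 to 42.3%, so the levels of these 4 genes are uncertain. The row named Rpl24 carries a gene identifier that GENCODE M21 gives to Zbtb11 and spans chr16:55966388-56009026 in build mm9, so its level, 420 ± 38.5 FPKM in KO-labelled SR9009 cells for example, may hold reads of both genes. Of the 77 models, 24 hold snoRNA rows within them and 11 overlap a row of at least 1 FPKM on the opposite strand, among them Rpl18 with Sphk2, Rps18 with Vps52 and Rpl23a with Tlcd1. Whether reads were counted by strand is not stated in the labels.

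Together the 77 genes took 3.50 ± 0.068% of the summed FPKM in KO-labelled DMSO cells, the lowest of the 4 groups. The share was 4.0, 3.83 and 3.63% in KO-labelled SR9009 libraries 1 to 3, 3.48, 3.57 and 3.44% in KO-labelled DMSO libraries, 3.86, 3.97 and 4.66% in control SR9009 libraries and 3.90, 4.07 and 3.80% in control DMSO libraries. The KO-labelled DMSO libraries lay below the other 9 libraries without overlap. Control SR9009 library 3 lay above all others. In these bulk samples fewer cells of a type and less RNA per cell cannot be told apart.

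**Figure D1:**
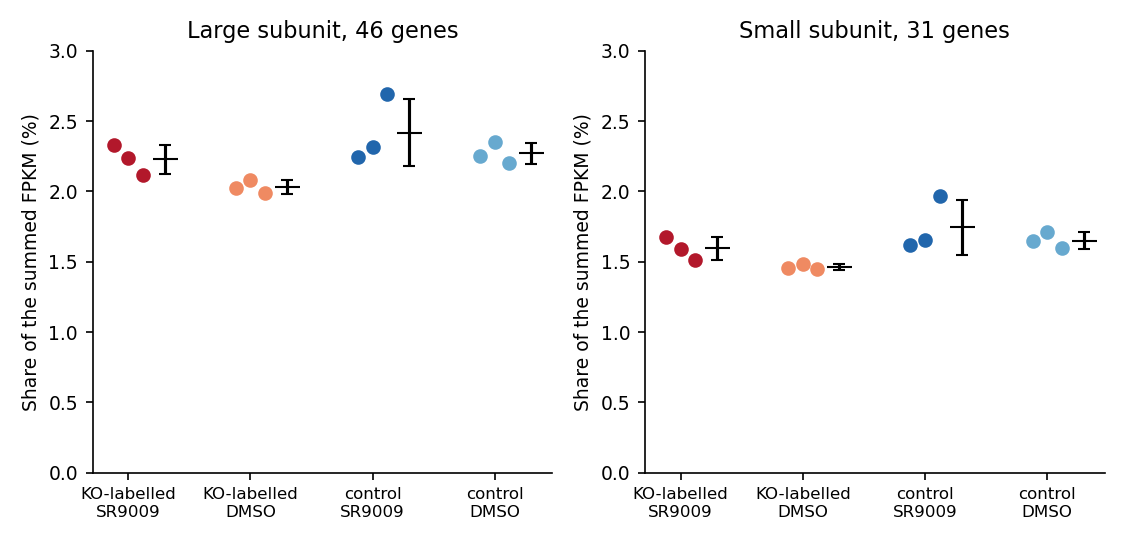
Share of the summed FPKM of each library (%, vertical axis from 0) taken by the 46 large subunit genes (left) and the 31 small subunit genes (right). Each point is a library, and the black bar with whiskers is the mean and SD of the 3 libraries of a group. KO-labelled DMSO libraries are lowest in both panels, and control SR9009 library 3 is highest at 2.69% for the large and 1.97% for the small subunit.

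Control SR9009 library 3 stood apart from its group for these genes. It was the highest of the 12 libraries for 73 of the 77 genes, which is 94.8%, against 10.4% of the other 11136 genes tested. The median gene of the 77 stood 0.38 log2 units above its mean over the 12 libraries there, against 0.01 and 0.06 in control SR9009 libraries 1 and 2. Other abundant genes with short coding sequences moved with them in that library. Of 101 other genes of at least 100 FPKM with a coding sequence shorter than the ribosomal protein median, 65.3% were highest there, against 20.4% of 489 such genes with a longer one. The main sums, counts and medians that rest on this library are given with and without it.

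**Figure D2:**
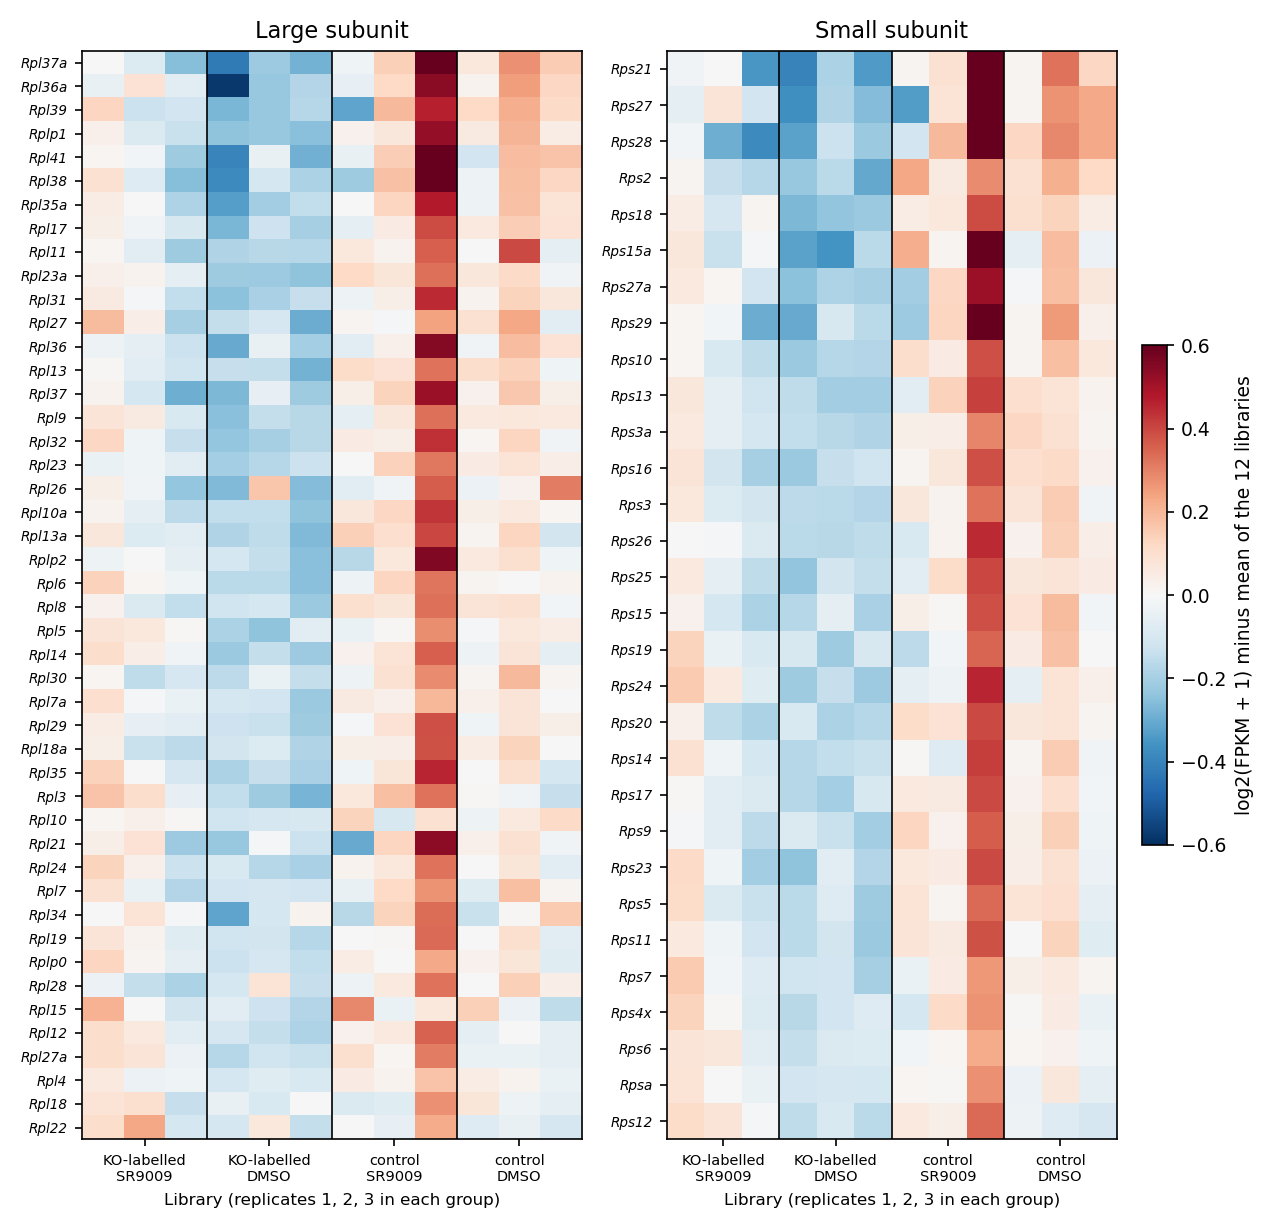
Deviation of log2(FPKM + 1) from the mean of the 12 libraries for each of the 46 large subunit genes (left) and 30 of the 31 small subunit genes (right), with libraries in columns in 4 groups of 3 and genes ordered from the lowest to the highest log2 change of KO-labelled against control cells in DMSO. Red is higher and blue lower than the mean, with the scale ending at 0.6. The red column is control SR9009 library 3, and the 3 columns of KO-labelled DMSO cells are blue for nearly all genes.

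In DMSO, KO-labelled hepatocytes held less mRNA of ribosomal proteins of both subunits than control hepatocytes. The summed level of the 77 genes was 14.6% lower, 19060 ± 473 FPKM in KO-labelled cells and 22325 ± 939 FPKM in control cells (n = 3 each), and their share of all FPKM was 10.8% lower. On the log2(FPKM + 1) scale 76 of 77 changes were negative with a median of -0.21, against a median of 0.04 over all genes tested. With limma and Benjamini-Hochberg adjustment over all 11213 genes at 0.05, 11 of the 77 fell and 0 rose, against a background of 8.32% of all genes lower and 11.7% higher. At an unadjusted p under 0.05, 42 of the 77 were lower and 0 higher, where 1511 of 11213 genes were lower and 2131 higher. All 3 KO-labelled libraries lay below all 3 control libraries for 68 of the 77, against 17.5% of all genes. The 9 exceptions were Rpl15, Rpl18, Rpl21, Rpl22, Rpl26, Rpl28, Rpl34, Rpl41 and Rps12.

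Rps2 (chr17:24855061-24858874 in mm9) had the smallest p among them. It stood at 404, 422 and 382 FPKM in KO-labelled DMSO libraries, against 505, 549 and 515 FPKM in control DMSO libraries. Every KO-labelled value lay below every control value, with a log2 change of -0.38 (SE 0.07, limma adjusted p = 0.00281). Rps18 (chr17:34088944-34092946), a protein of the head of the small subunit, stood at 252, 257 and 260 FPKM in KO-labelled DMSO libraries and 325, 333 and 313 FPKM in control DMSO libraries. Here too the groups lay apart, and the log2 change was -0.33 (SE 0.08, limma adjusted p = 0.0122). Rpl23a (chr11:77994434-77997086), which sits beside the exit of the peptide tunnel, stood at 276, 275 and 271 FPKM in KO-labelled DMSO libraries and 337, 348 and 316 FPKM in control DMSO libraries. Its groups did not overlap either, with a log2 change of -0.28 (SE 0.07, limma adjusted p = 0.0104). Rps2, Rps18 and Rpl23a were called lower in all 22 alternative fits, with limma adjusted p at most 0.048.

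Rpl13 (chr8:125626250-125629144) stood at 421, 420 and 380 FPKM in KO-labelled DMSO libraries, against 499, 511 and 455 FPKM in control DMSO libraries. The log2 change was -0.26 (SE 0.07, limma adjusted p = 0.0259), and the groups lay apart. The others that fell were Rps3a (-0.24), Rps10 (-0.28), Rpl23 (-0.22), Rpl37a (-0.47), Rpl36a (-0.46), Rpl17 (-0.30) and Rplp1 (-0.34), with limma adjusted p between 0.0306 and 0.0448. Rpl37a had the most negative change of all 77 genes, with 198, 228 and 218 FPKM in KO-labelled DMSO libraries and 277, 321 and 295 FPKM in control DMSO libraries. Rplp1, the most abundant of the 77, stood at 764, 772 and 760 FPKM in KO-labelled DMSO libraries and 939, 1041 and 932 FPKM in control DMSO libraries. Those 8 genes were called in 7 to 18 of the 22 alternative fits. Rpl22, whose product binds RNA and is not essential to the mouse ribosome, was the exception in sign, with a log2 change of 0.01 (SE 0.09) and 50.3, 56.6 and 49.0 FPKM in KO-labelled DMSO libraries against 51.4, 52.5 and 50.4 FPKM in control DMSO libraries.

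The other stalk proteins and the p53-linked proteins did not pass the test. Rplp0 averaged 428 ± 6.91 FPKM in KO-labelled DMSO cells and 470 ± 24.1 FPKM in control DMSO cells (log2 change -0.13, SE 0.07, limma adjusted p = 0.204). Rplp2 averaged 165 ± 8.61 FPKM in KO-labelled DMSO cells and 190 ± 8.15 FPKM in control DMSO cells (log2 change -0.21, limma adjusted p = 0.318). Rpl5 stood at 147 ± 9.43 FPKM in KO-labelled DMSO cells and 168 ± 4.31 FPKM in control DMSO cells (log2 change -0.20, limma adjusted p = 0.101). Rpl11 stood at 225, 227 and 226 FPKM in KO-labelled DMSO libraries and 256, 336 and 245 FPKM in control DMSO libraries, a group whose library 2 lies apart (log2 change -0.29, limma adjusted p = 0.106). Rps6 averaged 403 ± 10.0 FPKM in KO-labelled DMSO cells and 434 ± 8.23 FPKM in control DMSO cells (log2 change -0.11, limma adjusted p = 0.29). Rpsa, also known as the laminin receptor, had a log2 change of -0.10 (limma adjusted p = 0.368), and Rpl13a, in human cells a brake on the translation of inflammatory mRNAs, of -0.21 (limma adjusted p = 0.104).

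The number of calls depended on control SR9009 library 3 although neither group of this comparison holds it, because all 4 groups share an estimate of the spread. Without that library 48 of the 77 were called lower and 0 higher, the 11 above among them, where 1152 of 11213 genes were lower. With only the KO-labelled DMSO and control DMSO libraries in the fit 50 were called lower, where 1105 of 11213 genes were. The log2 changes are the same in all 3 fits. Leaving out other libraries in turn gave counts of 3 to 19, with 3 without control DMSO library 2, 4 without KO-labelled DMSO library 1, 2 or 3 or control DMSO library 1, 5 without control DMSO library 3 and 19 without control SR9009 library 1. In the fits with 3 and 19 calls, 698 and 1014 of 11213 genes were lower. A stricter or looser filter, the pseudocount and the scaling to a common sum gave between 3 and 14 calls. The 3 came with no filter, where 775 of 22450 genes were lower. The 14 came with a mean of at least 5 FPKM, where 785 of 7428 genes were lower.

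Some values moved with this result, in a comparison where 11.7% of all genes tested rose and 8.32% fell. Of the 7 Kupffer cell markers tested, 3 fell (Cd5l, Marco and C1qa) and 1 rose (Cd68), and the 8 listed markers summed to 32.1 to 42.1 FPKM in KO-labelled DMSO libraries and 40.3 to 51.4 FPKM in control DMSO libraries. Of 3 endothelial markers tested 2 rose (Lyve1 and Stab1), with sums of 8.60 to 12.8 FPKM in KO-labelled DMSO libraries and 5.43 to 6.17 FPKM in control DMSO libraries. Of 10 hepatocyte markers 3 rose and 1 fell, or 5 and 1 without control SR9009 library 3, where 1566 of 11213 genes rose and 1152 fell. Of the 5 bile duct markers 2 were tested, and Sox9 rose (log2 change 1.46) while Spp1 fell (-0.70). Their list summed to 29.1 to 38.8 FPKM in KO-labelled DMSO libraries and 42.1 to 44.7 FPKM in control DMSO libraries, without overlap. Other abundant genes with short coding sequences had a median log2 change of -0.13 (101 genes), and longer ones of -0.01 (489 genes). The part of these in the result was not tested.

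**Figure D3:**
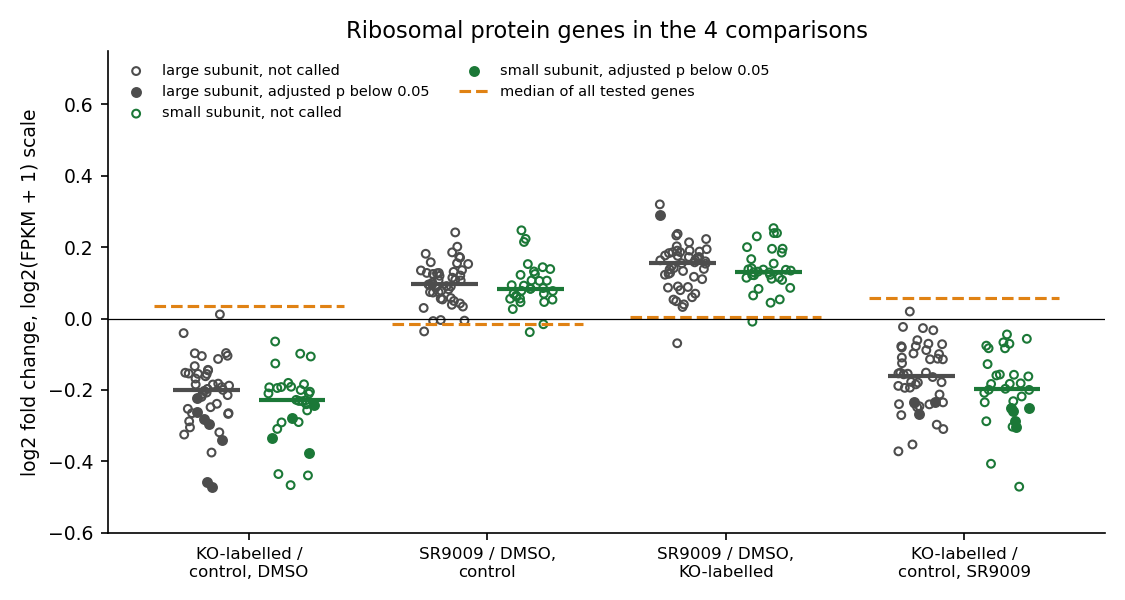
Log2 fold change on the log2(FPKM + 1) scale (vertical axis) of the 77 genes in 4 comparisons, with large subunit genes in grey and small subunit genes in green. Filled points passed an adjusted p of 0.05, solid bars are the medians of each subunit and the dashed line is the median of all 11213 genes tested. With all 12 libraries, both subunit medians lie below the dashed line for KO-labelled against control cells and above it for SR9009 against DMSO, and in control cells the median of the 77 genes turned to -0.02 without control SR9009 library 3.

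In KO-labelled cells, SR9009 went with slightly higher levels of most ribosomal protein genes, of which Rpl3 alone passed the test. The summed level was 10.4% higher, 21038 ± 1294 FPKM in KO-labelled SR9009 cells and 19060 ± 473 FPKM in KO-labelled DMSO cells, and 75 of 77 changes were positive with a median log2 change of 0.14, against 0.00 over all genes tested. The share of the 77 genes in all FPKM was 9.34% higher. With limma 1 of 77 rose and 0 fell, against 5.32% of all genes higher and 4.56% lower. At an unadjusted p under 0.05, 14 were higher and 0 lower, where 1341 of 11213 genes were higher and 1223 lower. All SR9009 libraries lay above all DMSO libraries for 42 of the 77, against 16.9% of all genes. The 2 genes with a negative sign were Rpl28 (-0.07) and Rps28 (-0.01). Other abundant genes with short coding sequences had a median log2 change of 0.07 (101 genes), and longer ones of 0.02 (489 genes). Of 10 hepatocyte markers 4 fell and 0 rose here, against 4.56% of all genes lower and 5.32% higher. Their list summed to 32545 ± 488 FPKM in KO-labelled SR9009 cells and 35599 ± 1203 FPKM in KO-labelled DMSO cells. Of the 7 Kupffer cell, 3 endothelial and 2 bile duct markers tested, 0 were called. The part of these in the rise was not tested.

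Rpl3 (chr15:79908211-79913836), which reaches the peptidyl transferase centre, stood at 308, 295 and 264 FPKM in KO-labelled SR9009 libraries and 247, 236 and 225 FPKM in KO-labelled DMSO libraries. The groups did not overlap, and the log2 change was 0.29 (SE 0.08, limma adjusted p = 0.0357). In control cells Rpl3 stood at 286, 310 and 344 FPKM with SR9009 and 275, 270 and 248 FPKM with DMSO. Those groups did not overlap either, with a log2 change of 0.24 (SE 0.08, limma adjusted p = 0.0831), and 0.17 without library 3 (limma adjusted p = 0.183). Rpl3 in KO-labelled cells was called in 12 of 22 alternative fits. Among the others, Rpl23a had a log2 change of 0.22 (SE 0.07, limma adjusted p = 0.055), Rps18 of 0.23 (limma adjusted p = 0.105), Rpl5 of 0.21 (limma adjusted p = 0.116), Rplp0 of 0.15 (limma adjusted p = 0.202) and Rps6 of 0.13 (limma adjusted p = 0.262). The count of members higher was 12 without control SR9009 library 3, where 782 of 11213 genes were higher. Rps18 then had a limma adjusted p of 0.00716 and Rpl23a of 0.00803. The count was 10 with only the KO-labelled libraries in the fit, where 656 of 11213 genes were higher. It was 0 without control DMSO library 2, KO-labelled DMSO library 1, 2 or 3 or KO-labelled SR9009 library 1 or 2, 2 without control SR9009 library 1 and 3 without control SR9009 library 2. In the fits with 2 and 3 calls, 658 and 567 of 11213 genes were higher.

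In control cells, slightly higher levels of ribosomal protein genes with SR9009 rested on library 3. The summed level was 24060 ± 3568 FPKM in control SR9009 cells and 22325 ± 939 FPKM in control DMSO cells, 7.77% higher, and 1.41% lower in control SR9009 cells without library 3. The share of the 77 genes in all FPKM was 6.19% higher, and 0.135% lower without library 3. The median log2 change was 0.09 with 71 of 77 positive, and -0.02 with 46 of 77 negative without library 3. With limma 0 of 77 rose and 0 fell, against 3.69% of all genes higher and 4.55% lower. At an unadjusted p under 0.05, 6 were higher (among them Rpl3, Rps12, Rpl27a, Rpl13a and Rpl12) and 0 lower. Of 11213 genes, 1064 were higher and 1362 lower at that threshold. The groups did not overlap for 7 genes, all higher, against 10.8% of all genes. Without library 3 they did not overlap for 7 genes higher and 4 lower, against 19.8% and 20% of all genes. The count of members higher was 1 without control SR9009 library 1 and 1 without control SR9009 library 2, where 272 and 336 of 11213 genes were higher. Of 10 hepatocyte markers 4 fell and 0 rose, with or without library 3. Their list summed to 30712 ± 1145 FPKM in control SR9009 cells and 33790 ± 279 FPKM in control DMSO cells. With all 12 libraries, other abundant genes with short coding sequences had a median log2 change of 0.03 (101 genes), and longer ones of -0.01 (489 genes). The part of these was not tested. This comparison shares the control DMSO libraries with that of KO-labelled and control cells above.

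Under SR9009, KO-labelled cells again stood below control cells, but by less once library 3 was left out. The summed level was 12.6% lower, 21038 ± 1294 FPKM in KO-labelled SR9009 cells and 24060 ± 3568 FPKM in control SR9009 cells, and 4.42% lower without control SR9009 library 3. Of the 77 changes 76 were negative with a median of -0.18, against 0.06 over all genes tested, and 55 were negative with a median of -0.06 without that library. With limma 8 fell and 0 rose, against 7.43% of all genes lower and 12.9% higher. At an unadjusted p under 0.05, 28 were lower and 0 higher, where 1345 of 11213 genes were lower and 2393 higher. The groups did not overlap for 17 genes, all lower, against 12.3% of all genes. Without library 3 they did not overlap for 17 genes lower and 1 higher, against 19.3% and 28.1% of all genes. With all 12 libraries, other abundant genes with short coding sequences had a median log2 change of -0.09 (101 genes), and longer ones of 0.01 (489 genes). Their part in the difference was not tested.

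Rps2 had the smallest p here too, with 478, 429 and 420 FPKM in KO-labelled SR9009 libraries and 556, 491 and 575 FPKM in control SR9009 libraries. The groups lay apart, with a log2 change of -0.29 (SE 0.07, limma adjusted p = 0.0133). Without control SR9009 library 3 its log2 change was -0.24 with a limma adjusted p of 0.0393, and it was the 1 of the 8 that was still called. Rps20, a protein of the head of the small subunit, stood at 46.2, 40.6 and 39.5 FPKM in KO-labelled SR9009 libraries and 49.0, 48.2 and 59.9 FPKM in control SR9009 libraries (log2 change -0.30, SE 0.08, limma adjusted p = 0.023). These groups did not overlap, and without library 3 its limma adjusted p was 0.0591. Also among the 8 were Rps10 (-0.26), Rps9 (-0.25), Rpl10a (-0.27), Rpl8 (-0.23) and Rpl13 (-0.23), with limma adjusted p between 0.0403 and 0.0478. Rps2, Rps10 and Rpl13 fell both under SR9009 and in DMSO. With only the SR9009 groups in the fit 0 of the 77 were called, and leaving out KO-labelled SR9009 library 2 or 3 also gave 0. In those fits 613, 680 and 638 of 11213 genes were lower. The count was 23 without control SR9009 library 1, where 766 of 11213 genes were lower. It was 5 without control DMSO library 2 or 3 or KO-labelled DMSO library 3, where 784, 779 and 811 genes were lower. It was 3 without control DMSO library 1 or KO-labelled DMSO library 1 or 2, where 780, 828 and 788 were.

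**Figure D4:**
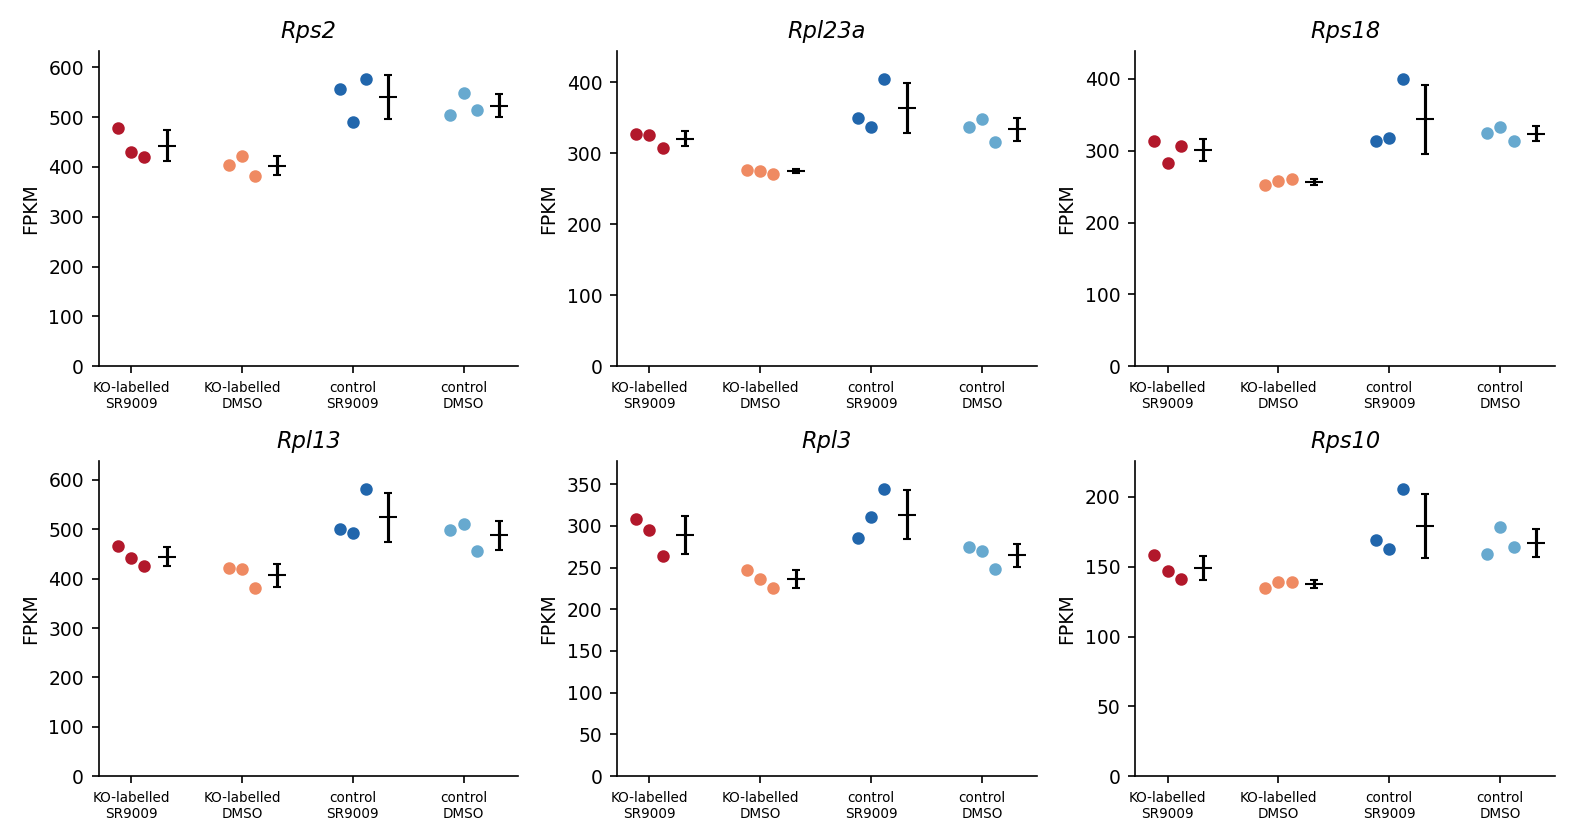
FPKM in each library (vertical axis from 0) for 6 genes past the adjusted p of 0.05 in at least 1 comparison, with the mean and SD of the 3 libraries of each group beside the points. Rps2, Rpl23a, Rps18 and Rpl13 lie lower in all 3 KO-labelled DMSO libraries than in all 3 control DMSO libraries, and control SR9009 library 3 is the highest point in each panel.

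The response to SR9009 was not shown to differ between the genotypes for any ribosomal protein gene. With the limma interaction test 0 of 77 were called in either direction, against 0.0178% of all genes higher and 0.00892% lower, and 0 of 77 passed an unadjusted p of 0.05, where 7.02% of all genes did. The median difference between the log2 changes in KO-labelled and in control cells was 0.03, and it was 0.16 without control SR9009 library 3.

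The large and small subunit genes differed between groups by similar amounts. The sum over large subunit genes was 1.40 ± 0.0082 times that over small subunit genes in KO-labelled SR9009 cells, 1.39 ± 0.017 times in KO-labelled DMSO cells, 1.39 ± 0.018 times in control SR9009 cells and 1.37 ± 0.0081 times in control DMSO cells. The ranges overlapped in KO-labelled DMSO and control DMSO libraries. The range in KO-labelled SR9009 libraries, 1.388 to 1.403, lay above that in control DMSO libraries, 1.367 to 1.383. In DMSO, the large subunit sum was 14.2% and the small subunit sum 15.2% lower in KO-labelled than in control cells, with 7 of 46 and 4 of 31 genes called lower and median log2 changes of -0.20 and -0.23. Groups lay apart for 38 of 46 large and 30 of 31 small subunit genes in that comparison. With SR9009 in KO-labelled cells the sums were 10.6% and 10.1% higher for the large and small subunits, and 8.12% and 7.30% higher in control cells. The shares of all FPKM were 9.57% and 9.02% higher in KO-labelled cells, and 6.55% and 5.69% higher in control cells. Without control SR9009 library 3 the sums were instead 0.756% and 2.31% lower with SR9009 in control cells. The share of the large subunit was then 0.528% higher and that of the small subunit 1.05% lower. Under SR9009 the large subunit sum was 12.3% and the small subunit sum 13.0% lower in KO-labelled than in control cells, with 3 of 46 and 5 of 31 genes called lower. Without that library the sums were 4.41% and 4.43% lower and the shares of all FPKM 2.38% and 2.40% lower. The small subunit gene Rps2 was then the 1 of these 8 genes still called. Genes with and without the pyrimidine run at the annotated start had like medians for KO-labelled against control cells in DMSO, -0.21 for 29 genes with it and -0.22 for 27 without it.

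Short genes varied most between replicates. The SD of log2(FPKM + 1) within groups had a Spearman correlation of -0.75 with the coding length over the 77 genes, which share libraries and so are not independent, and no p is given. The median SD was 0.15 for the 38 genes with a coding sequence below the median of 456 bases and 0.11 for the 39 others. Rpl4, with the longest coding sequence of 1257 bases, had the lowest SD of 0.05. Rps27, Rpl38 and Rps29, with 252, 210 and 168 bases, had the highest SDs of 0.26, 0.26 and 0.25. Rpl41, the shortest with 75 bases, stood at 248, 316 and 267 FPKM in KO-labelled DMSO libraries and 301, 372 and 368 FPKM in control DMSO libraries, so its groups overlapped (log2 change -0.32, SE 0.15, limma adjusted p = 0.165). These spreads include control SR9009 library 3. Without it, a setting chosen after seeing the data, the correlation was -0.50, and the median SD was 0.092 for the shorter genes and 0.069 for the others. The SDs of Rps27, Rpl38 and Rps29 were then 0.15, 0.17 and 0.16, and Rpl4 was still the lowest of the 77 at 0.04. In DMSO 4 of the 38 shorter and 7 of the 39 longer genes were called lower, with median log2 changes of -0.24 and -0.19. That log2 change had a Spearman correlation of 0.49 with the coding length over the 77 genes, again without a p. Shorter genes thus tended to have the more negative changes.

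**Figure D5:**
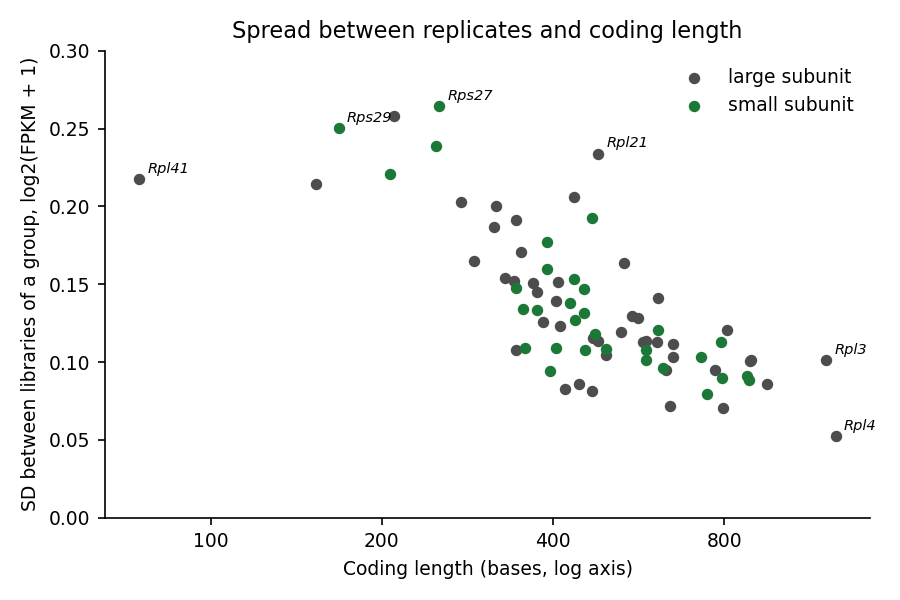
Pooled SD of log2(FPKM + 1) between the 3 libraries of a group (vertical axis) against the coding length in bases (horizontal log axis) for the 77 genes. Shorter genes lie higher, up to 0.26 for Rps27, and Rpl4 is lowest at 0.05. Control SR9009 library 3 is included, without which Rps27 had an SD of 0.15.

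Ribosomal proteins whose symbols fall outside the naming pattern gave a mixed picture. Of 10 listed, 7 passed the filter, and 1 fell in KO-labelled against control cells in DMSO, or 2 without control SR9009 library 3. Of all genes 8.32% were lower and 11.7% higher in that comparison, and 1152 of 11213 were lower without that library. Fau, a fusion of a ubiquitin-like protein and the small subunit protein S30, stood at 347, 343 and 338 FPKM in KO-labelled DMSO libraries and 426, 437 and 406 FPKM in control DMSO libraries, with no overlap (log2 change -0.30, SE 0.09, limma adjusted p = 0.0392). It also fell under SR9009, to 365 ± 30 FPKM in KO-labelled cells against 449 ± 72 FPKM in control cells (log2 change -0.29, limma adjusted p = 0.0476). Without control SR9009 library 3 that change was -0.16 and did not pass (limma adjusted p = 0.096). Gnb2l1, the scaffold RACK1 on the small subunit, averaged 261 ± 25 FPKM in KO-labelled DMSO cells and 309 ± 42 FPKM in control DMSO cells (log2 change -0.23, limma adjusted p = 0.201). Rpl7l1, a nucleolar relative of Rpl7, rose with SR9009 in KO-labelled cells to 39.1 ± 1.2 FPKM, against 32.5 ± 0.84 FPKM with DMSO (log2 change 0.26, limma adjusted p = 0.0113).

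Many of the genes that assemble ribosomes rose with SR9009. Of 30 assembly genes, 13 rose and 0 fell with SR9009 in KO-labelled cells and 10 rose and 0 fell in control cells, with median log2 changes of 0.24 and 0.21, against a background of 5.32% and 3.69% of all genes higher. Without control SR9009 library 3 the counts were 18 and 11, where 782 and 480 of 11213 genes were higher. A difference from the ribosomal protein genes was not tested. Nucleolin (Ncl) stood at 91.0, 93.9 and 87.5 FPKM in KO-labelled SR9009 libraries and 70.6, 70.0 and 69.8 FPKM in KO-labelled DMSO libraries (log2 change 0.37, limma adjusted p = 0.000326). In control cells Ncl stood at 98.4, 101 and 98.9 FPKM with SR9009 and 77.9, 78.2 and 78.2 FPKM with DMSO (log2 change 0.35, limma adjusted p = 0.000655). In KO-labelled against control cells in DMSO, 3 of the 30 fell (Nop58, Ncl and the box C/D snoRNP protein Nop56) and 1 rose (Ubtf, a factor of ribosomal RNA transcription). Of all genes 8.32% were lower and 11.7% higher, so the 10% of the list that fell lay near the share of all genes. Of 7 tested genes of the MYC network, Myc rose with SR9009 in KO-labelled cells to 109 ± 10 FPKM, against 78.3 ± 1.2 FPKM with DMSO, and in control cells to 138 ± 11 FPKM, against 90.7 ± 4.3 FPKM with DMSO (limma adjusted p = 0.00193 and 0.000507). Mxd4, which opposes MYC, fell with SR9009 in both genotypes (log2 changes -0.55 and -0.56). In DMSO, Myc had a log2 change of -0.21 in KO-labelled against control cells (limma adjusted p = 0.0693), and Mlx, which pairs with the glucose-sensing factors ChREBP and MondoA, fell (-0.41).

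Of 16 translation factors and other mRNAs with a TOP motif, 1 fell and 0 rose in KO-labelled against control cells in DMSO, with a median log2 change of -0.10, against 8.32% of all genes lower and 11.7% higher. Without control SR9009 library 3, 3 fell, where 1152 of 11213 genes did. The gene called with all libraries was Npm1, a nucleolar chaperone, at 142 ± 1.6 FPKM in KO-labelled DMSO cells and 179 ± 3.2 FPKM in control DMSO cells (log2 change -0.33, limma adjusted p = 0.000962). Npm1 rose with SR9009 in KO-labelled cells (0.40) and in control cells (0.21, limma adjusted p = 0.033), where without library 3 the change was 0.16 and did not pass (limma adjusted p = 0.0564). Eif3e, a subunit of an initiation factor, rose with SR9009 in KO-labelled cells (0.19, limma adjusted p = 0.0454). Npm1 and Eif3e were the 2 of the 16 that rose there, while 0 fell, against 5.32% of all genes higher. The median log2 change of the 16 was 0.15, against 0.14 for the 77 ribosomal protein genes. Without control SR9009 library 3, 5 of the 16 rose, where 782 of 11213 genes did. Of 17 genes of mTORC1 and its regulators, 2 fell and 2 rose in KO-labelled against control cells in DMSO, near the share of all genes (8.32% lower and 11.7% higher). Without control SR9009 library 3, 2 fell and 3 rose, where 1152 of 11213 genes fell and 1566 rose. Rheb, the GTPase that activates mTORC1, stood at 41.3, 40.7 and 42.0 FPKM in KO-labelled DMSO libraries and 65.7, 56.5 and 60.5 FPKM in control DMSO libraries (log2 change -0.55, limma adjusted p = 0.000123). Ddit4, an mTORC1 inhibitor, also fell (-0.30), while the inhibitors Deptor (0.48) and Sesn1 (0.34) rose. With SR9009 Sesn1 and Ddit4 fell in both genotypes, Sesn1 to 33.5 ± 2.8 FPKM in KO-labelled cells against 62.7 ± 3.3 FPKM with DMSO, and to 28.3 ± 1.7 FPKM in control cells against 49.3 ± 1.3 FPKM with DMSO.

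The 76 mitochondrial ribosomal protein genes had a median log2 change of -0.08 in KO-labelled against control cells in DMSO, against -0.21 for the cytosolic ones, and 6 fell and 1 rose, against 8.32% of all genes lower and 11.7% higher. Without control SR9009 library 3, 9 fell and 3 rose, where 1152 of 11213 genes fell and 1566 rose. Mrps2 rose (0.31, limma adjusted p = 0.0119), and those that fell included Mrpl21 (-0.34), Mrps36 (-0.42) and Mrpl33 (-0.44). With SR9009, Mrpl3 rose in KO-labelled cells (0.63, limma adjusted p = 0.0109) and in control cells (0.65, limma adjusted p = 0.011). Of the 49 tested pseudogenes of cytosolic ribosomal proteins, 3 fell and 0 rose in KO-labelled against control cells in DMSO, with a median log2 change of -0.12, against the same shares of all genes. Without control SR9009 library 3, 6 fell, where 1152 of 11213 genes did.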

How the data were processed

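Per the submitters' processing notes, reads were handled with HISAT2 and StringTie on mouse build mm9. No source used here gives their versions, the annotation or the strand setting. The authors deposited 1 value per gene and library, estimated with StringTie per the submitters' processing notes and read here as FPKM. The header names no unit, and FPKM was inferred because column totals differ between libraries and low values step with gene length.

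Values were compared as log2(FPKM + 1) for genes of at least 1 FPKM in at least 3 of 12 libraries. limma 3.58.1 (R 4.3.3, trend and robust) fitted the 4 group means to all 12 libraries, with Benjamini-Hochberg adjustment over 11213 genes at 0.05. A fold change on this scale understates that of low genes. Whole-read counts were not at hand, so the values carry no counting intervals. The fit was checked on simulated data. Alternatives varied the pseudocount, filter, scaling, variance model and libraries, and used a replicate block.

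The genes and lists were chosen with earlier results of these data known. Named were, per comparison, up to 4 called genes per direction and subunit by smallest p, the 4 highest and 4 lowest levels per subunit, Rplp0, Rplp1, Rplp2, Rps6, Rpsa, Rpl5, Rpl11, Rpl13a, Fau and Gnb2l1 always, and up to 4 called genes per list. Rpl36a, Rpl17, Rps9, Rpl28, Rps28, Rpl22, Rpl41, Rpl4, Rps27, Rpl38 and Rps29, the pseudogene parents and the genes listed by overlap were named after their values were seen. Coding lengths came from GENCODE M21 and exclude the stop codon. Start sequences came from RefSeq on GRCm38.p6. Some genes that the rule names are not reported here.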

Additional observations from a re-analysis of the deposited data

How the results depend on the processing

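Of 22 alternatives, these moved the counts of genes called by more than 1.5 times. In KO-labelled against control cells in DMSO, where 11 fell, the count was 3 with no filter, 21 after quantile normalization, 50 with only the groups compared, 7 without the 2 shallowest libraries, 5 with neither trend nor robust moderation and 7 with a replicate block. Leaving out a library gave 3 to 48. With SR9009 in KO-labelled cells, where 1 rose, it was 0 with no filter, 2 with a mean of at least 5 FPKM, 3 on the TPM scale, 6 after quantile normalization, 0 with median-of-ratios scaling, 10 with only the groups compared, 0 with neither trend nor robust moderation and 0 with the replicate block. Leaving out a library gave 0 to 12. With SR9009 in control cells, where 0 rose, it was 1 after quantile normalization and 0 to 1 on leaving out a library. In KO-labelled against control cells under SR9009, where 8 fell, it was 1 with no filter, 14 after quantile normalization, 13 with median-of-ratios scaling, 0 with only the groups compared, 13 without the 2 shallowest libraries, 2 with neither trend nor robust moderation and 3 with the replicate block. Leaving out a library gave 0 to 23. The counts over all genes moved too. In DMSO, 933 genes were lower in KO-labelled cells in the main fit, 1065 after quantile normalization and 1105 with only the groups compared. The number was 816 without the 2 shallowest libraries and 775 of 22450 with no filter. Under SR9009, 833 were lower in the main fit, 999 after quantile normalization and 1120 with median-of-ratios scaling. The number was 613 with only the groups compared, 739 without the 2 shallowest libraries and 742 of 22450 with no filter. With SR9009 in KO-labelled cells, 596 were higher in the main fit, 627 after quantile normalization and 656 with only the groups compared. The cause of these differences was not tested.

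The median log2 change of the 77 genes with SR9009 in control cells turned to -0.0187 without control SR9009 library 3 and was 0.1792 without control SR9009 library 1. The median of the interaction turned to -0.0352 without the 2 shallowest libraries, and to -0.0278, -0.0111 and -0.0021 without control SR9009 library 1, control SR9009 library 2 and KO-labelled SR9009 library 1. It was 0.1576 without control SR9009 library 3. The median in KO-labelled against control cells in DMSO stayed negative in all 22 alternatives, but not all of them could move it. Those that changed only the filter, the variance model, the replicate block or the SR9009 libraries left it at -0.21 by construction. In the others it lay between -0.25 with median-of-ratios scaling and -0.15 on the TPM scale. On the TPM scale the calls over all genes in that comparison were 1597 higher and 701 lower, against 1307 and 933. Replicate numbers did not pair the libraries: deviations from the group means correlated between -0.112 and 0.122 for pairs with the same number and between -0.117 and 0.181 for others.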
